A study of Mus musculus with 768 samples.

Results

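The 10 genes described here encode heat shock proteins and related chaperones: Hspa1a, Hspa1b, Hspa8, Hspa5, Hsp90aa1, Hsp90ab1, Hspb1, Hsph1, Dnajb1 and Cryab. They were chosen by name, and all 10 have a row among the 32679 genes of the count table. Each gene was read as CPM (its counts scaled to a common total in each well) over the wells with at least 50000 counts and 1000 genes, 675 of 768. By the labels, single cells were sorted into wells, 94 per mouse, whereas the table holds 96 wells per mouse. The cells came from the dentate gyri of 8 male mice, 2 months old. Smart-seq2, a plate method that copies whole transcripts and adds no molecular identifiers, was used for all of them.

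All mice carried Nestin:GFP, a transgene in which Nes, an intermediate filament gene of neural stem cells, lends its control elements to a fluorescent protein, and the labels give no other allele and no strain. Mice 1, 3, 5 and 7 had received a negative control oligonucleotide. Mice 2, 4, 6 and 8 had received a mimic of miR-132, a microRNA abundant in neurons. Each weekly injection held 150 pmol in 3 µl with lipofectamine 2000, over 5 weeks. Mice 1 to 4 carry the date 17 April 2018 and mice 5 to 8 the date 19 April 2018, so that each date held 2 mice of each treatment. What took place on that date is not stated in the labels. The well names also place the dates in different columns of a plate, so date and plate position cannot be told apart. The mouse was the replicate, and 75 to 92 wells per mouse were kept, with a median of 646537 counts and 2741 genes per well and 43889169 to 66897586 counts per mouse.

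Chaperones bind unfolded stretches of other proteins, keep them from clumping and hand them on for folding or destruction. HSP70 proteins (Hspa genes) work in cycles of ATP use that are started by J-domain partners such as DNAJB1 and reset by exchange factors such as HSPH1. HSP90 proteins act later in folding, on kinases and steroid receptors among others, and the small heat shock proteins HSPB1 and CRYAB hold unfolded proteins without using ATP. On stress, the factor HSF1 switches on many of these genes within minutes, by binding repeats of a short element, nGAAn, in their promoters. In brain, αB-crystallin (Cryab) is known as an abundant protein of mature oligodendrocytes, and dissociation of tissue into single cells is known to induce stress and immediate early genes.

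The promoter stretches below are shown because they hold the motif matches named here and show how alike the Hspa1a and Hspa1b promoters are. They are RefSeq sequences of build GRCm38.p6, written 5′ to 3′ on the gene's strand. A promoter window of 250 bases before to 50 after the start was at hand for 6 members: Hspa1a, Hspa1b, Hspb1, Hsph1, Hspa5 and Dnajb1. Capitals mark matches to GAANNTTC or TTCNNGAA, pairs of facing heat shock units, or to the CCAAT box (ATTGG on the other strand). In Hspa5 they mark the endoplasmic reticulum stress response element, which begins with a CCAAT box.
Hspa1a, chr17:34972157-34972406, minus strand, bases -250 to -1: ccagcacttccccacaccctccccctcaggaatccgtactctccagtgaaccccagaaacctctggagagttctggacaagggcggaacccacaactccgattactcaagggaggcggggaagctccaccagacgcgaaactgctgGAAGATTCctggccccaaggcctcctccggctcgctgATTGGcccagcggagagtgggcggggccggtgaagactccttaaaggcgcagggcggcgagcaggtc
Hspa1b, chr17:34959239-34959488, minus strand, bases -250 to -1: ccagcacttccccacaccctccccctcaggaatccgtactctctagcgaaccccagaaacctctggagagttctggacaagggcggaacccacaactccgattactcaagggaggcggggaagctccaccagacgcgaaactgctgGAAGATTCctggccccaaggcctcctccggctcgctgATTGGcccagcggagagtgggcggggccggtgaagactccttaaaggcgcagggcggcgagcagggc
Hspb1, chr5:135887779-135887858, plus strand, bases -140 to -61: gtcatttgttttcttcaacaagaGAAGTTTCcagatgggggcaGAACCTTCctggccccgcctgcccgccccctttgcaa
Hsph1, chr5:149636351-149636380, minus strand, bases -44 to -15: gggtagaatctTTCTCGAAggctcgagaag
Hspa5, chr2:34772020-34772049, plus strand, bases -70 to -41: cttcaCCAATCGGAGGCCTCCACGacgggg

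The Hspa1a and Hspa1b stretches were 98.8% identical over 250 bases, and they differed by C44T, T47C and T249G, with positions counted from 1 at the first base printed and the Hspa1a base given first. Both held the match at -104, and Hspb1 held matches at -117 and -97. The Hsph1 and Hspa5 stretches also overlap exons of the reference annotation on the same strand (2 exons and 1 exon), so they are upstream only of the RefSeq start used here. On both strands together, GAANNTTC was found in 7.86% and TTCNNGAA in 8.52% of 32851 promoter windows of this length, and either of them in 15.1%. A CCAAT box was found in 37.4% and the endoplasmic reticulum element in 0.119%. Neither 8-letter motif was found in either of the Dnajb1 windows.

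In the same build the member genes span chr17:34969190-34972156 (Hspa1a), chr17:34956436-34959238 (Hspa1b), chr17:45567775-45573271 (Hsp90ab1) and chr12:110690605-110702728 (Hsp90aa1) on the minus strand. Hspa8 spans chr9:40800984-40810087, Cryab chr9:50751325-50756636, Hspa5 chr2:34771970-34777547, Hspb1 chr5:135887919-135889563 and Dnajb1 chr8:83608193-83612653 on the plus strand, and Hsph1 chr5:149614287-149636376 on the minus strand.

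Wells were clustered without these 10 genes and without the other listed chaperone genes, so that the members' own counts did not set the classes. Immediate early genes and processed pseudogene copies of the members were not left out of the clustering. The clusters, named from marker genes, put 45.7% of the 659 clustered wells in an oligodendrocyte-like, 16.2% in an endothelial-like, 14.4% in an astrocyte-like and 12.7% in a pericyte-like class. There were also 38 neuroblast-like, 18 oligodendrocyte precursor-like and 16 fibroblast-like wells, and 16 wells with more than 6000 genes that were put in no class. The 10 oligodendrocyte markers summed to a mean of 91631 CPM in oligodendrocyte-like wells, against 58.5 CPM in endothelial-like, 40.7 CPM in pericyte-like and 269.4 CPM in astrocyte-like wells. In the pericyte-like class, the 6 smooth muscle markers summed to between 791 and 8131 CPM in the 8 mice, so this class also held smooth muscle RNA. Levels below are means of CPM per well in each mouse, over mice with at least 5 wells of a class (7 mice for endothelial-like wells, 8 for the other 3 large classes). Class pairs were compared within mice by edgeR's quasi-likelihood test on summed counts, with Benjamini-Hochberg adjustment over 7627 genes. Since the classes were made from other genes of the same wells, these p-values describe the split into classes. In that fit 9 of the 10 members could be tested; Hspa1a, Hspb1 and Cryab passed the count filter through the classes where they are high, so their calls between classes are a description, and Hspa1b, with a count in 5.93% of wells, did not pass.

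The small heat shock genes divided the classes most sharply. Cryab was an oligodendrocyte-like transcript and Hspb1 a transcript of the vessel classes, endothelial-like and pericyte-like. In oligodendrocyte-like wells Cryab stood at 3078 ± 954 CPM (SD, n = 8 mice), with a lowest mouse of 2103, a median of 2842 and a highest of 5071 CPM. In pericyte-like wells it stood at 191.3 ± 103.8 CPM (lowest 48.03, median 191.8, highest 381.04 CPM; n = 8), and in astrocyte-like wells at 85.4 ± 62.1 CPM (lowest 0.277, median 98.5, highest 171.5 CPM; n = 8). No mouse's pericyte-like or astrocyte-like level came near the lowest oligodendrocyte-like level. In endothelial-like wells 13 Cryab counts were found in all, 1 in each of 13 wells (12.1% of the class), and no well exceeded 2.71 CPM. The fitted log2 difference was -4.60 ± 0.81 (SE) for pericyte-like over oligodendrocyte-like (adjusted p = 8.69e-05) and 5.71 ± 0.85 for oligodendrocyte-like over astrocyte-like (adjusted p = 1.94e-05). Cryab was also lower in endothelial-like than in pericyte-like wells (adjusted p = 8.07e-07). Since Cryab passed the count filter through the classes where it is high, its calls are a description. Per kilobase of exon, Cryab at 2081 CPM was the highest of the 10 members in oligodendrocyte-like wells, ahead of Hsp90ab1 at 733 CPM.

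Hspb1 encodes HSP25 of the mouse, a small heat shock protein that also binds actin filaments. It stood at 1045 ± 550 CPM in endothelial-like wells (lowest mouse 447, median 1023, highest 2095 CPM; n = 7) and at 642 ± 314.3 CPM in pericyte-like wells (lowest 326.8, median 519, highest 1221 CPM; n = 8). These ranges overlapped, and the pair did not pass the test (log2 0.84 ± 1.1, adjusted p = 0.821). Oligodendrocyte-like wells held 1 Hspb1 count among 208165907 counts of the class. Astrocyte-like wells held Hspb1 counts in 4 of 95 wells, from mice 4 and 6, and 6 of 8 astrocyte-like mice stood at 0. Hspb1 entered the fit only through its counts in the vessel classes, so its calls against the other classes support nothing. They had adjusted p-values of 1.21e-07 and 6.17e-05 for endothelial-like over oligodendrocyte-like and astrocyte-like wells, and 1.77e-07 and 0.000153 for pericyte-like wells. Its call between astrocyte-like and oligodendrocyte-like wells (adjusted p = 0.00738) rested on those 2 mice: without mimic mouse 4 the adjusted p was 0.136, and without mimic mouse 6 it was 0.0865. Per kilobase, Hspb1 was the highest member in both vessel classes, at 1014 CPM in endothelial-like and 623 CPM in pericyte-like wells.

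Hspa1a and Hspa1b encode the same stress-induced HSP70 protein from neighbouring genes. Nearly all HSP70 counts fell on Hspa1a, 22265 against 710 for Hspa1b over the 675 wells. In pericyte-like wells Hspa1a stood at 242.6 ± 146.1 CPM (lowest mouse 52.8, median 221.005, highest 517 CPM; n = 8), and in endothelial-like wells at 112.97 ± 88.2 CPM (lowest 16.3, median 78.2, highest 243.1 CPM; n = 7). The 8 oligodendrocyte-like mice lay between 0 and 34.4 CPM, below every pericyte-like mouse and below 6 of 7 endothelial-like mice. Astrocyte-like mice stood between 0 and 3.44 CPM. The vessel levels came from a minority of wells: 45.2% of pericyte-like wells had a Hspa1a count (38 of 84, exact 95% binomial interval 34.3 to 56.5%) and 28.97% of endothelial-like wells (31 wells, 20.6 to 38.5%). In oligodendrocyte-like wells the share was 8.64% (26 wells, 5.72 to 12.4%) and in astrocyte-like wells 2.11% (2 of 95, 0.256 to 7.4%). With each well thinned to 50000 counts, the shares were 42.9%, 27.1%, 7.64% and 1.05%. The highest well, a pericyte-like one, held 2662 CPM.

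The fit called Hspa1a in 3 pairs, each against a class where it is low, and these calls likewise support nothing. They were pericyte-like over oligodendrocyte-like wells (log2 5.34 ± 1.65, adjusted p = 0.0193), a call lost without control mouse 1 (adjusted p = 0.0544), and pericyte-like and endothelial-like over astrocyte-like wells (adjusted p = 0.000508 and 0.00122), where 47 counts were found in all. In endothelial-like over oligodendrocyte-like wells its log2 difference was 4.16 ± 1.70 (adjusted p = 0.0954), which passed without mimic mouse 2 (0.0203) and by DESeq2 (0.00235). Oligodendrocyte-like over astrocyte-like wells did not pass (adjusted p = 0.186) except without mimic mouse 8 (0.0387). Hspa1b had a count in 16.7% of pericyte-like and 9.35% of endothelial-like wells, and no more than 23.4 CPM in any mouse of these classes. Of the 25-base windows of the Hspa1b transcript, 69.4% also stand in Hspa1a, so reads from the shared part can be split or dropped in counting and the division between the pair is uncertain. Their sum gave the same order of classes, with 248.04 ± 147.6 CPM in pericyte-like wells, then 121.5 ± 90.01 CPM in endothelial-like, 9.05 ± 13.1 CPM in oligodendrocyte-like and 0.688 ± 1.27 CPM in astrocyte-like wells.

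**Figure D1:**
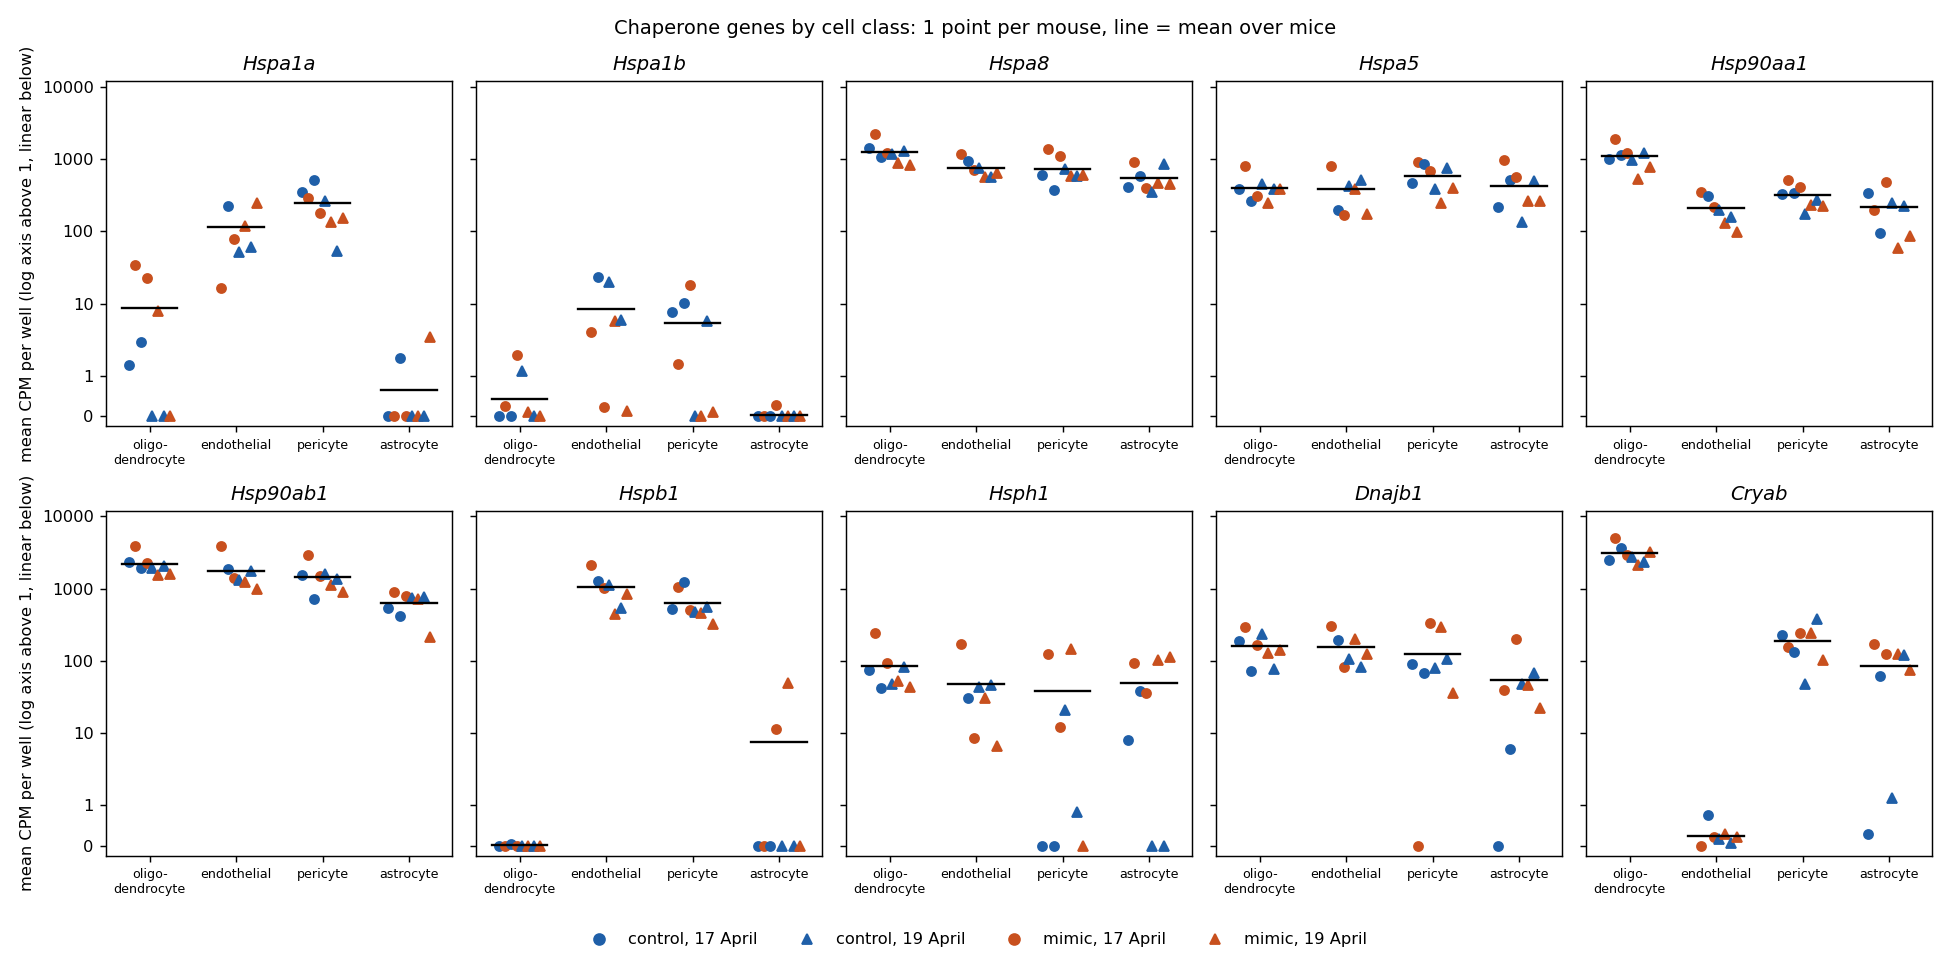
Mean CPM per well of each gene in the 4 large classes, 1 point per mouse (colour: treatment; shape: date), with a line at the mean over mice; the vertical axis is logarithmic above 1 CPM and linear below. Cryab was near 3078 CPM in oligodendrocyte-like wells and under 1 CPM in endothelial-like wells, Hspb1 showed the opposite order, and Hspa5 overlapped in all classes.

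The HSP90 genes and Hspa8 were present in every class, and among the 4 large classes their mean levels were highest in oligodendrocyte-like wells. Hsp90aa1, the stress-responsive HSP90, stood at 1090 ± 397 CPM in oligodendrocyte-like wells (lowest mouse 534, median 1064, highest 1894 CPM; n = 8). It stood at 312.8 ± 112.1 CPM in pericyte-like (lowest 174.9, highest 516 CPM), 215.3 ± 141.4 CPM in astrocyte-like (59.5 to 477 CPM) and 209.1 ± 94.2 CPM in endothelial-like wells (96.8 to 353.7 CPM). The lowest oligodendrocyte-like mouse was thus above the highest mouse of each of the other 3 large classes. The log2 difference was -2.84 ± 0.39 for endothelial-like (adjusted p = 3.90e-06) and -2.18 ± 0.36 for pericyte-like over oligodendrocyte-like wells (adjusted p = 4.15e-05), and 2.74 ± 0.38 for oligodendrocyte-like over astrocyte-like wells (adjusted p = 6.03e-06). No pair among the other 3 classes passed this test. A count of Hsp90aa1 was found in 99.3% of oligodendrocyte-like wells, against 52.3% to 64.3% of wells in the other 3.

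Hsp90ab1, the constitutive HSP90, was more even: 2197 ± 745 CPM in oligodendrocyte-like, 1779 ± 979 CPM in endothelial-like, 1461 ± 680 CPM in pericyte-like and 641 ± 229.2 CPM in astrocyte-like wells. It was lower in pericyte-like than in oligodendrocyte-like wells (log2 -1.09 ± 0.26, adjusted p = 0.00228). Endothelial-like over oligodendrocyte-like wells did not pass (-0.61 ± 0.27, adjusted p = 0.128), and their mice overlapped, with an endothelial-like mouse as high as 3894 CPM. It was higher in oligodendrocyte-like (1.84 ± 0.26, adjusted p = 1.17e-05) and endothelial-like (1.23 ± 0.27, adjusted p = 0.00138) than in astrocyte-like wells. Pericyte-like over astrocyte-like missed the threshold at 0.75 ± 0.26 (adjusted p = 0.0506) and passed without control mouse 3 or 5 or mimic mouse 4 or 6 (0.0281 to 0.0421). In neuroblast-like wells only mice 1 to 3, all of 17 April, had enough wells. Hsp90ab1 stood there at 2514 ± 462 CPM, with a count in 38 of 38 wells. In oligodendrocyte-like wells the 4 mice of that date averaged 2611 CPM.

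Hspa8 encodes HSC70, the constitutive HSP70 that also strips clathrin from vesicles. It stood at 1262 ± 434 CPM in oligodendrocyte-like (lowest mouse 826, median 1189, highest 2223 CPM), 761 ± 219.1 CPM in endothelial-like, 738 ± 321.8 CPM in pericyte-like and 550.0 ± 215.6 CPM in astrocyte-like wells. In neuroblast-like wells of 3 mice, all of 17 April, it stood at 1375 ± 290 CPM. Oligodendrocyte-like wells of that date averaged 1479 CPM over mice. Mice of the classes overlapped. It was lower in pericyte-like (log2 -1.26 ± 0.28, adjusted p = 0.00144) and endothelial-like (-0.94 ± 0.30, adjusted p = 0.0236) than in oligodendrocyte-like wells, and higher in oligodendrocyte-like than in astrocyte-like wells (1.19 ± 0.28, adjusted p = 0.00355). The endothelial-like call was lost in 6 of 8 fits that left out a mouse (without mice 2, 4, 5, 6, 7 or 8, adjusted p 0.0529 to 0.0883). Without the low-count filter all 3 calls were lost (adjusted p = 0.296 for the endothelial-like pair, 0.0620 for the pericyte-like and 0.0802 for the astrocyte-like pair).

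Hspa5, Hsph1 and Dnajb1 passed edgeR's test in none of the 6 pairs, although DESeq2 called Hsph1 lower in pericyte-like than in oligodendrocyte-like wells (adjusted p = 0.0225). Hspa5 encodes BiP, the HSP70 of the endoplasmic reticulum, and its levels were 589 ± 245.1 CPM in pericyte-like, 426 ± 266.1 CPM in astrocyte-like, 401 ± 171.5 CPM in oligodendrocyte-like and 380 ± 230 CPM in endothelial-like wells. Its 6 fitted differences lay between -0.47 and 0.09 on the log2 scale. Dnajb1 stood at 163.2 ± 76.7 CPM in oligodendrocyte-like, 156.6 ± 81.1 CPM in endothelial-like, 126.04 ± 120.2 CPM in pericyte-like and 53.8 ± 63.8 CPM in astrocyte-like wells. Hsph1 stood between 38.6 ± 61.8 CPM (pericyte-like) and 85.4 ± 67.7 CPM (oligodendrocyte-like) in the large classes, and at 351.3 ± 323.4 CPM in neuroblast-like wells of 3 mice (242.1, 715 and 96.5 CPM in mice 1 to 3). These 3 mice are of 17 April, when oligodendrocyte-like wells averaged 114.2 CPM of Hsph1 over mice.

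Beside all genes, the members' counts of calls were as follows; they include the calls of Cryab, Hspb1 and Hspa1a against classes where they are low, so nothing is read from them. For endothelial-like over pericyte-like 1 of 9 passed, against 8.67% of 7627 genes, and for endothelial-like over oligodendrocyte-like 4 of 9, against 19.4%. For endothelial-like over astrocyte-like 4 of 9 passed against 16.8%, and for pericyte-like over oligodendrocyte-like 6 of 9 against 21.2%. For pericyte-like over astrocyte-like 2 of 9 passed against 15.1%, and for oligodendrocyte-like over astrocyte-like 5 of 9 against 14.6%. The median member log2 difference was 1.84 for oligodendrocyte-like over astrocyte-like wells, where the median of all genes was 0.46, and -1.09 for pericyte-like over oligodendrocyte-like wells, where it was -0.91. The classes also differ in genes per well, with medians of 2935 in oligodendrocyte-like, 2567 in astrocyte-like, 2118 in endothelial-like and 2004.5 in pericyte-like wells, and the part this plays in those medians was not tested.

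**Figure D2:**
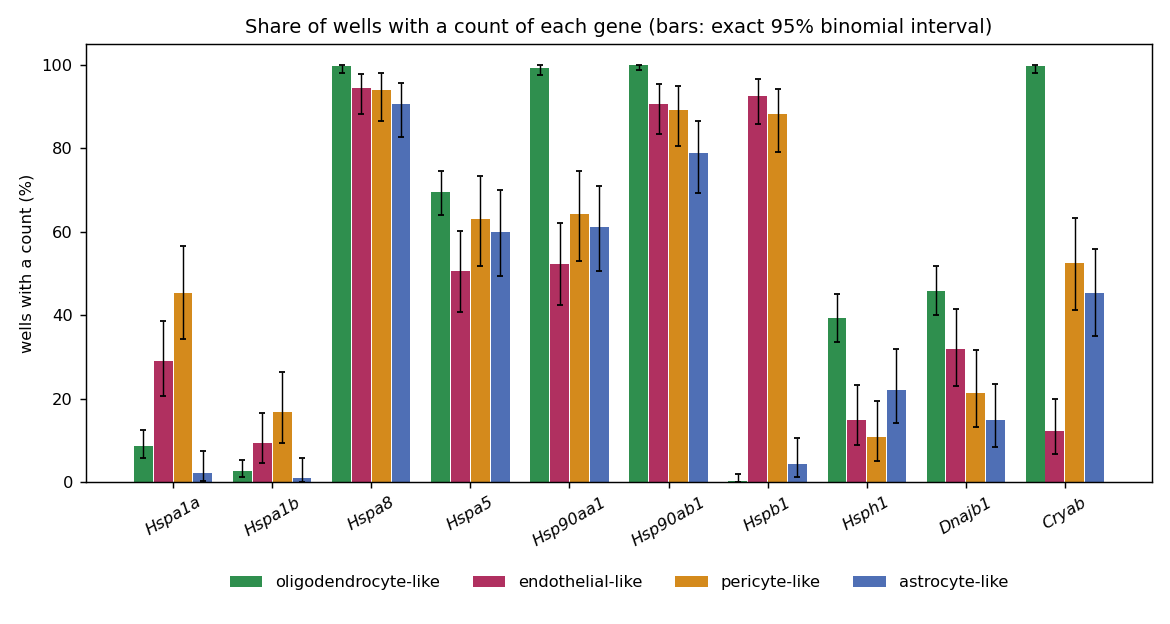
Share of wells with at least 1 count of each gene in the 4 large classes, in percent, with exact 95% binomial intervals that cover counting error only. Hspa8 and Hsp90ab1 were counted in most wells of every class, whereas Hspa1a reached 45.2% of pericyte-like wells and 2.11% of astrocyte-like wells.

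In oligodendrocyte-like wells, the abundant members varied together from well to well. The Spearman correlation was 0.46 between Hsp90aa1 and Hsp90ab1, 0.41 between Hspa8 and Hsp90ab1, and 0.39 between Hsp90aa1 and Cryab. The same pairs were weaker elsewhere: Hsp90aa1 with Hsp90ab1 had 0.096 in endothelial-like, 0.23 in pericyte-like and 0.21 in astrocyte-like wells, and Hsp90aa1 with Cryab had 0.085, -0.046 and -0.081. In oligodendrocyte-like wells Dnajb1 followed these weakly (0.09 to 0.11 with Hsp90ab1, Hsp90aa1 and Hspa8) and instead had 0.32 with Jun, 0.25 with Fos and 0.22 with Egr1, immediate early transcription factor genes. In endothelial-like wells Hspb1 had 0.37 with Dusp1, a phosphatase gene of the same early response, and Hspa1a had 0.34 with Jun. In pericyte-like wells Hspa1a had 0.35 with Hsp90aa1 and 0.32 with Jun. These are descriptions over wells that share mice and depth, and many of the counts are 0. The spread between wells, as a coefficient of variation in oligodendrocyte-like wells, was 47.98% for Cryab and 50.5% for Hspa8, but 196.6% for Dnajb1.

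The oligodendrocyte-like wells fell into 2 clusters, and a contrast of them was added after seeing that immediate early genes led cluster 1 (66 wells; Egr2, Arc and Fos among its 10 genes of highest fold). Cluster 2 held the other 78.1% of the class, and mouse 7 had no cluster 1 well. Of the 7 members tested between the clusters, Dnajb1 was the 1 that passed, as higher in cluster 1. Hspa1a, Hspa1b and Hspb1 were not tested in this fit. In cluster 1 Dnajb1 stood at 320.2, 798, 177.8, 321.3, 676, 288.8 and 349.8 CPM in mice 1, 2, 3, 4, 5, 6 and 8. In cluster 2 it stood at 141.3, 145.5, 46.9, 118.6, 143.2, 70.4 and 40.2 CPM in the same mice, and at 78.02 CPM in mouse 7. Every cluster 1 value was above every cluster 2 value. The within-mouse log2 difference was 2.00 ± 0.23 (adjusted p = 0.00843, edgeR), and 7 of 7280 genes passed (0.0962%), among them Jun, Egr1, Dusp1 and Fos, with log2 differences of 2.66, 3.74, 3.91 and 3.22. Jun, Egr1, Dusp1 and Fos were open to the clustering that made this split, so their calls support nothing. Dnajb1 was left out of the clustering, but the clusters came from other genes of the same wells. Its p thus describes this split and is no independent test. The call was lost without control mouse 3 (adjusted p = 0.0619), control mouse 5 (0.0623) or mimic mouse 2 (0.0550), with the difference between 1.95 and 1.99. It was also lost when wells were given to mice by sample title (log2 1.88, adjusted p = 0.513).

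The other 6 members tested between these clusters lay between -0.15 and 0.34 on the log2 scale and did not pass: Cryab at 0.02 ± 0.09, Hsp90aa1 at -0.05 ± 0.12, Hspa5 at -0.10 ± 0.16, Hspa8 at -0.11 ± 0.12, Hsp90ab1 at -0.15 ± 0.12 and Hsph1 at 0.34 ± 0.54. The median of all genes was -0.33. Among the other stress-induced cytosolic genes listed, 0 of 16 tested passed by edgeR, and 3 had an unadjusted p under 0.05.

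**Figure D3:**
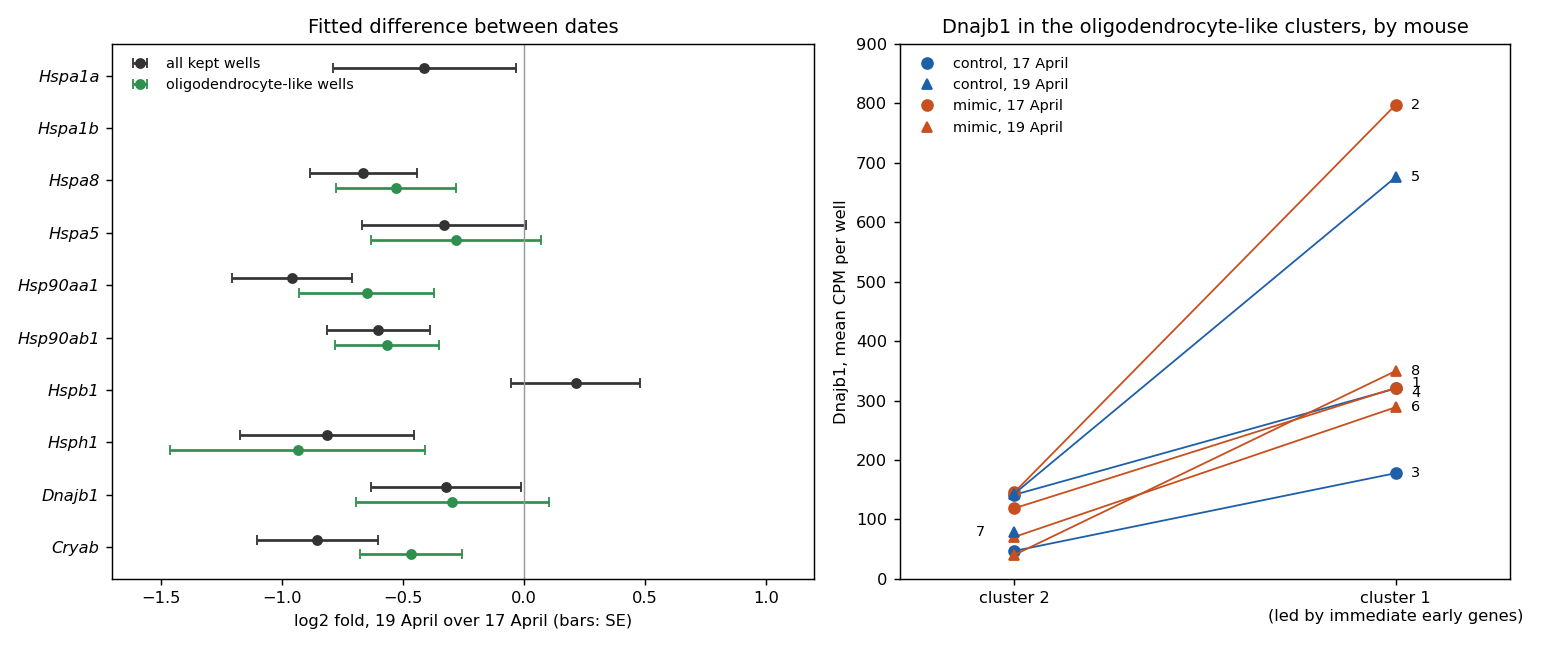
Left, fitted log2 difference of each gene between dates, 19 April over 17 April, with SE, over all kept wells and over oligodendrocyte-like wells; 8 of 9 and 7 of 7 points lie below 0, and genes with no point were not tested in that fit. Right, mean Dnajb1 CPM per well in the oligodendrocyte-like clusters, 1 line per mouse (number beside it; mouse 7 had no cluster 1 well); it was higher in cluster 1 in 7 of 7 mice.

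Between the dates, which also differ in plate position, most members were lower in mice of 19 April, but none passed the adjusted test. Over all kept wells Hsp90aa1 stood at 754, 1085, 776 and 796 CPM in mice 1 to 4 and at 654, 301.4, 504 and 370.7 CPM in mice 5 to 8. Cryab stood at 1570, 2498, 2090 and 1608 CPM and at 1522, 843, 780 and 1084 CPM in the same order. Hsp90ab1 stood at 2021, 2876, 1731 and 1933 CPM and at 1717, 1370, 1614 and 1117 CPM. For these 3 genes every mouse of 17 April was above every mouse of 19 April, by little for Hsp90ab1 and Cryab. Such separation was found for 456 of 8823 genes (5.17%).

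The fitted log2 differences were -0.96 ± 0.25 for Hsp90aa1 (adjusted p = 0.198), -0.85 ± 0.25 for Cryab (0.229), -0.66 ± 0.22 for Hspa8 (0.292), -0.60 ± 0.21 for Hsp90ab1 (0.324) and -0.81 ± 0.36 for Hsph1 (0.464). These 5 of 9 had an unadjusted p under 0.05, against 915 of 8823 genes. Hspa1a, Hspa5 and Dnajb1 were at -0.41 ± 0.38, -0.33 ± 0.34 and -0.32 ± 0.31, and Hspb1 was at 0.21 ± 0.27. The members' median was -0.60, against -0.02 for all genes. No gene passed by edgeR (0.0%) or limma, while DESeq2 called 2.58% of genes, of the members only Hsp90aa1 (adjusted p = 0.0307). Mouse 2 was the highest of all 8 mice for 7 members, and without it the median was -0.39, with 7 of 9 members lower. When wells were given to mice by sample title, 6 of 9 members were higher on 19 April and the median was 0.12, so the direction rests on the map from wells to mice.

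The share of oligodendrocyte-like wells moved with the date, at 59.6%, 46.7%, 53.3% and 50.7% in mice 1 to 4 and 54.1%, 36.05%, 26.8% and 30.8% in mice 5 to 8. A lower level over all wells can reflect fewer cells of a class as well as less RNA per cell, and in sums over all wells these cannot be told apart. Within oligodendrocyte-like wells 7 of 7 members tested were lower on 19 April, between -0.94 and -0.28 on the log2 scale, with a median of -0.53 (all genes: -0.0022). None of 7377 genes passed by edgeR (0.0%), 3.81% had an unadjusted p under 0.05 and DESeq2 called 3. No member's mice were separated there, against 3.16% of genes. In this class Cryab stood at 2504, 5071, 3703 and 2958 CPM in mice 1 to 4 and at 2727, 2103, 2327 and 3230 CPM in mice 5 to 8, so that the dates overlapped. Without mimic mouse 2 the median of this class was -0.24, and 5 of 7 members were lower. With wells assigned by title it was -0.07, with Hsp90ab1 at -0.017, Hspa8 at -0.020, Hsp90aa1 at -0.072 and Cryab at -0.073, and Dnajb1 turned to 0.16.

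In endothelial-like wells 7 of 8 members were lower on 19 April (median -0.57), against 2125 of 5799 genes (median 0.38), with Hspb1 at 2095, 1266 and 1023 CPM in mice 2 to 4 and 1108, 447, 540 and 835 CPM in mice 5 to 8 (log2 -1.17 ± 0.39, unadjusted p = 0.0168, adjusted p = 0.999). With wells assigned by title this Hspb1 difference was -0.046, and the median of the 8 members -0.12. In pericyte-like wells 8 of 10 were lower (median -0.48), against 2420 of 5644 genes (median 0.19), with Hspa1a at 352.2, 290.003, 517 and 181.2 CPM in mice 1 to 4 and 260.8, 136.3, 52.8 and 150.8 CPM in mice 5 to 8. Assigned by title, Hspa1a in this class was at -0.13 in place of -1.35, and 4 of the 10 members were lower, with a median of 0.12. In astrocyte-like wells 4 of 7 members were lower (median -0.16), beside 3884 of 7480 genes (median -0.04). By edgeR 0.0% of genes passed in each of these 3 classes (of 5799, 5644 and 7480 genes, with 3.50%, 1.05% and 1.08% at an unadjusted p under 0.05), and DESeq2 called 98, 18 and 24, none of them a member. Of the immediate early genes, 11 of 15 tested were lower on 19 April over all wells (median -0.40, none called), beside 4576 of 8823 genes, with Fos at 2423, 2073, 1764 and 2113 CPM in mice 1 to 4 and 1163, 1798, 181.3 and 1257 CPM in mice 5 to 8. Their part in the members' differences was not tested.

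**Figure D4:**
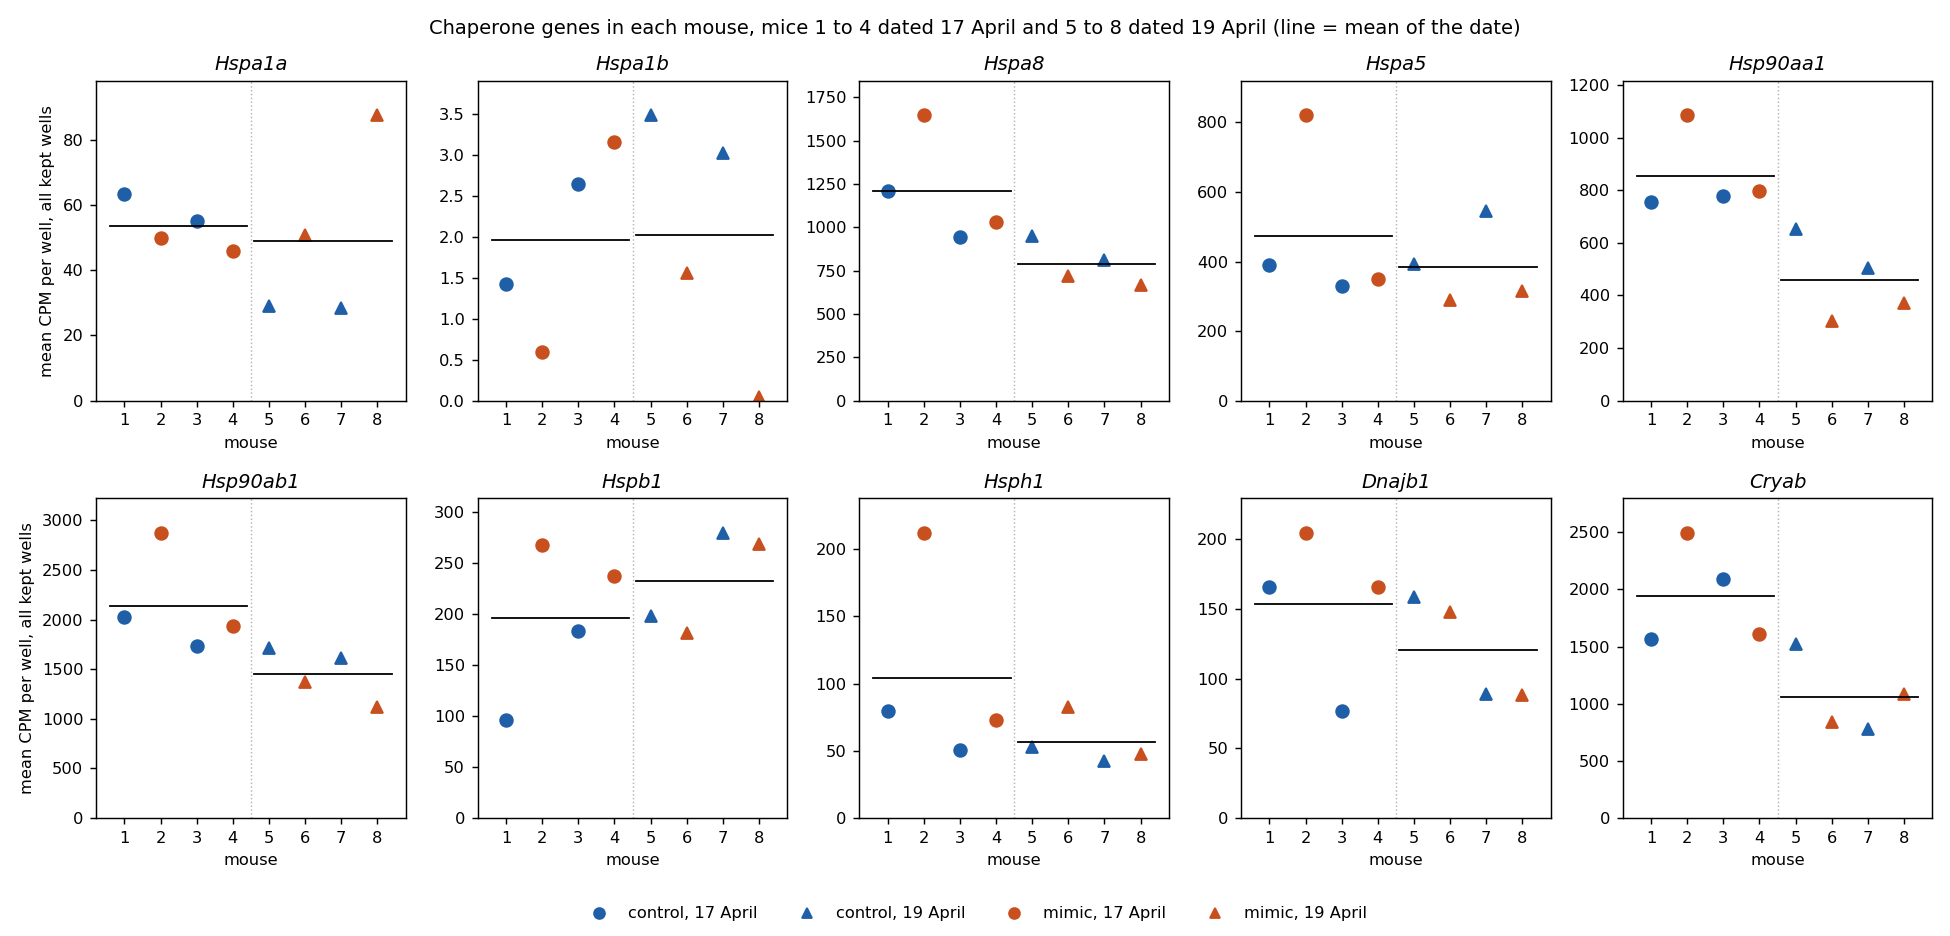
Mean CPM per well of each gene over all kept wells, 1 point per mouse (colour: treatment; shape: date), with a line at the mean of each date and axes that start at 0. Hsp90aa1, Hsp90ab1 and Cryab separate the dates, mouse 2 is highest for most genes, and control and mimic mice overlap for every gene.

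Over all kept wells, control and mimic mice overlapped for every member. With date in the model, 0 of 9 members and 0 of 8823 genes passed by edgeR (0.0%), 395 genes had an unadjusted p under 0.05, none of them a member, limma called 0 and DESeq2 called 15 with no member among them. The largest difference was that of Hsph1, at 79.6, 50.6, 52.5 and 42.1 CPM in control mice 1, 3, 5 and 7 and 212.3, 73.04, 82.4 and 47.9 CPM in mimic mice 2, 4, 6 and 8 (log2 0.75 ± 0.36, adjusted p = 0.9997). Hspa1a stood at 63.4, 55.1, 29.1 and 28.4 CPM in control and 49.9, 45.7, 50.6 and 87.4 CPM in mimic mice (0.56 ± 0.38). The lowest value was Hsp90aa1 at -0.25 ± 0.25, and the median was 0.01, against 0.000431 for all genes. Over all genes, 2.28% had mimic mice all above or all below the control mice. Which wells count as mimic rests on the map from wells to mice, since the sample titles give a different treatment for many wells. With wells assigned by title, the differences of Hsp90aa1, Hspa8, Hsp90ab1, Cryab, Hspa1a, Hspb1 and Hsph1 changed sign. No member passed with that map either.

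Nor did any member pass within a class by edgeR. The values by mouse and the differences within classes rest on the map from the sample descriptions too. In oligodendrocyte-like wells the 7 members tested lay between -0.14 (Hsp90aa1) and 0.53 (Hsph1), with Cryab at 0.19 ± 0.21. There 0.0% of 7377 genes passed by edgeR, 2.97% had an unadjusted p under 0.05, DESeq2 called 3, no member's mice were separated and 2.53% of genes were. In endothelial-like wells the 8 members tested lay between -0.15 and 0.97 (Hspa1a, SE 1.05; 0.0% of 5799 genes passed by edgeR, 1.97% unadjusted, 33 by DESeq2). Hspa1b, which was not tested there, lay between 5.97 and 23.4 CPM in the 3 control mice and between 0.12 and 5.72 CPM in the 4 mimic mice. How many of all genes separate the mice in this class was not counted, so nothing is read from this. The sum of Hspa1a and Hspa1b overlapped, at 65.9 to 248.5 CPM in control and 20.4 to 243.2 CPM in mimic mice. In pericyte-like wells the 10 members tested lay between -2.14 ± 2.38 (Hspa1b) and 6.30 ± 4.05 (Hsph1), with Hspb1 at -0.21 ± 0.36 and Hspa1a at -0.49 ± 0.59 (0.0% of 5644 genes passed, 0.638% unadjusted, 14 by DESeq2). In astrocyte-like wells, where 0.0% of 7480 genes passed by edgeR, 1.71% were under 0.05 unadjusted and 31 passed by DESeq2, Hsph1 stood at 8.08, 38.8, 0 and 0 CPM in control and 93.3, 36.1, 102.8 and 114.3 CPM in mimic mice. Its fitted difference there was 5.88 ± 2.71 (adjusted p = 0.9996 by edgeR, 0.0397 by DESeq2), and control mouse 3 stood above mimic mouse 4. The count of immediate early genes higher in mimic mice over all wells was 15 of 15 (median log2 0.49, none called), beside 4416 of 8823 genes, and Dnajb1 stood at 0.18 ± 0.31. The mice overlapped in the mean of this list on the log2 scale. It was 2.81, 2.05, 2.21 and 1.33 in control mice 1, 3, 5 and 7 and 2.25, 2.69, 2.64 and 2.26 in mimic mice 2, 4, 6 and 8.

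Whether the treatment difference itself differed between the dates was tested with an interaction term. No gene of 8823 passed by edgeR (0.0%), and 3.05% had an unadjusted p under 0.05, among them 3 members with an adjusted p of 0.9996. Hsp90aa1 averaged 765 CPM in control and 940 CPM in mimic mice on 17 April, and 579 and 336.021 CPM on 19 April (interaction -1.10 ± 0.40, unadjusted p = 0.0187). Hspa5 averaged 359.01 and 586 CPM on 17 April, and 470.0 and 301.5 CPM on 19 April (-1.34 ± 0.56, unadjusted p = 0.0376), with mouse 2 at 821 CPM. Hspa1a went the other way, from 59.2 and 47.8 CPM on 17 April to 28.7 and 69.03 CPM on 19 April (1.62 ± 0.59, unadjusted p = 0.0197). Each of these averages holds 2 mice, with wells given to mice by the sample descriptions, so they rest on that map as well.

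The wider chaperone lists give the setting. Of the stress-induced cytosolic genes that are not members, 15 of 18 tested were lower on 19 April over all wells (median -0.44, none called), among them Ahsa1, which stimulates HSP90 (-0.74 ± 0.23, adjusted p = 0.266), and Dnaja1 (-0.42 ± 0.22). The mitochondrial chaperonin genes Hspd1 and Hspe1 were at -0.51 ± 0.25 and -0.54 ± 0.32, and Bag3, an HSP70 exchange factor gene, at -0.05 ± 0.31. The TRiC chaperonin, which folds actin and tubulin, had 7 of 8 subunits lower (median -0.16). Of endoplasmic reticulum genes 16 of 22 were lower (median -0.16), with Hsp90b1 at -0.28 ± 0.23 and Calr at -0.25 ± 0.22, and of HSP70 and HSP90 partners 11 of 20 (median -0.05). Hsf1, which encodes the main heat shock factor, was at -0.37 ± 0.33. None of these passed.

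Between classes, the stress-induced cytosolic genes that are not members gave 2, 3 and 4 calls among 16 tested for endothelial-like over oligodendrocyte-like, pericyte-like over oligodendrocyte-like and oligodendrocyte-like over astrocyte-like wells, and 0 in the other 3 pairs. Of 22 endoplasmic reticulum genes, 2 passed in each pair of a vessel class with oligodendrocyte-like wells and 1 for endothelial-like over astrocyte-like. Of 20 HSP70 and HSP90 partners, 1 passed in each of endothelial-like over pericyte-like and endothelial-like over astrocyte-like wells. The shares of all genes called in these pairs are those given above, 8.67% to 21.2%. Immediate early genes, of which 15 were tested, passed as higher in endothelial-like wells than in astrocyte-like for 14 and than in oligodendrocyte-like for 9, and in pericyte-like wells than in astrocyte-like for 11. These genes were open to the clustering that made the classes, so their calls are a description. Serpinh1, the collagen chaperone HSP47, was higher in pericyte-like (log2 9.0 ± 1.42) and endothelial-like (7.94 ± 1.39) than in oligodendrocyte-like wells, and lower in oligodendrocyte-like than in astrocyte-like wells (-6.98 ± 1.31). Hsbp1, whose product binds heat shock factor, was lower in endothelial-like (-1.51 ± 0.38, adjusted p = 0.00385) and pericyte-like (-1.42 ± 0.36) than in oligodendrocyte-like wells. Hspa2 was lower in endothelial-like than in pericyte-like (-5.87 ± 1.41) and astrocyte-like wells (-4.95 ± 1.36). The calls of Serpinh1 and Hspa2 set classes where the gene is high against a class where it is low, so they are a description. Canx, the membrane chaperone calnexin, was lower in both vessel classes than in oligodendrocyte-like wells (-1.22 ± 0.39 and -1.13 ± 0.37), and the cochaperone gene Fkbp4 was lower in pericyte-like wells (-1.09 ± 0.36, adjusted p = 0.0314). None of the 8 TRiC subunits passed in any pair.

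The genes whose pattern was most like a member were ranked by Spearman correlation over 31 mouse-by-class sums, among 8834 genes, a description over units that share mice. Cryab was nearest to Etv1 (0.93), Tubb4a (0.91) and Sept8 (0.89), and Hspa1a to Rbpms (0.90), Rcsd1 (0.88) and 4930523C07Rik (0.86). Dnajb1 was nearest to the polyubiquitin gene Ubb (0.64) and Agps (0.64), and Hspa5 to Calr (0.69), Fam136a (0.66) and Pdia3 (0.59). Hsph1 was nearest to Brms1l (0.70), and Hsp90ab1 to Ywhaq (0.81) and App (0.80). The nearest match was a copy for 3 members: Gm5844 for Hsp90aa1 (0.97), Hsp25-ps1 for Hspb1 (0.94) and Gm6210 for Hspa8 (0.77). These are processed pseudogenes. Of their own 25-base windows, 74.6%, 90.9% and 68.2% also stand in the parent's transcripts, so reads can be divided between copy and parent. All such copies together held counts equal to 1.13% of those of Hsp90aa1, 0.322% of Hspb1 and 0.161% of Hspa8, and after them Hspb1 was nearest to Ets1 (0.88) and Apold1 (0.88).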

How the data were processed

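Per the labels' protocols, single Nestin:GFP cells were sorted into plates and sequenced after Smart-seq2. The deposited table holds whole-number read counts per gene and well, not normalized by the authors. The submitters' processing notes name FastQC, STAR, Subread, featureCounts 1.5.1, Seurat 2.3.1 and mm10, with no role given.

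Wells with at least 50000 counts and 1000 genes were kept. The sample descriptions gave each well's mouse; the sample titles give the same mouse for 96 and the same treatment for 384 of 768 wells and were used as an alternative. Clustering (scanpy 1.11.5; 2000 variable genes, 20 components, 15 neighbours, Leiden resolution 1) left out 87 listed genes and the 16 wells with more than 6000 genes. That limit, and the contrast of the 2 oligodendrocyte-like clusters, were set after seeing the data. No doublet caller was run. Clusters were named from marker lists; the names were rebuilt here.

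Counts were summed per mouse, and per mouse and class (at least 5 wells), and tested with edgeR 4.0.16 (quasi-likelihood, TMM factors) over genes counted in 10% or more of the kept wells that also passed filterByExpr. Treatment and date entered 1 model, and class pairs had the mouse as a block. The threshold was an adjusted p of 0.05. DESeq2 1.42.0, limma 3.58.1 (log2 of mean CPM plus 1), other scalings and filters, and leaving out each mouse were alternatives; the steps were tested on simulated data. Intervals on shares cover counting error only, and PCR copies were not separated. Promoter sequences are RefSeq's, build GRCm38.p6. The members and gene lists were chosen with earlier results of these data known. Named genes are all 10 members, genes of the fixed lists, and up to 3 genes most like each member over mouse-by-class sums; 1 gene is not reported here.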

Additional observations from a re-analysis of the deposited data

Results flagged for a closer look

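Levels were screened for 1 mouse standing apart from the other 3 of its date or treatment, in groups of 4 mice whose highest mouse had at least 50 CPM. The screen marked 13 groups, 9.22% of those looked at. Its cutoff marks about 1 in 20 of independent groups, whereas these groups share mice and wells. Some groups also reached 50 CPM only through the marked mouse, so no excess is read from this share. Mouse 2, a mimic mouse of 17 April, was the mouse apart in 7 of them.

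Over all wells mouse 2 held 1085 CPM of Hsp90aa1, against 754 to 796 CPM in the other mice of 17 April. For Hspa5, the endoplasmic reticulum HSP70, it held 821 CPM, against 288.97 to 350.6 CPM in the other mimic mice and 328.6 to 389.5 CPM in the others of its date. In astrocyte-like wells its Hspa8 level was 908 CPM, with the other mimic mice at 395 to 472 CPM. Its endothelial-like wells held 3894 CPM of Hsp90ab1 (other mimic mice 982 to 1399 CPM) and 170.3 CPM of Hsph1 (6.66 to 30.7 CPM). In pericyte-like wells its Hsph1 level was 126.4 CPM, against 0 to 11.99 CPM on the same date.

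The other marked values came from 5 mice. Mimic mouse 8 held 87.4 CPM of Hspa1a over all wells (other mimic mice 45.7 to 50.6 CPM), and its astrocyte-like Hsp90ab1, at 215.7 CPM, was below the 729 to 777 CPM of the other mice of 19 April. Mimic mouse 4 held 201.6 CPM of Dnajb1 in astrocyte-like wells (22.6 to 46.01 CPM in the others). In pericyte-like wells, mouse 5 held 728 CPM of Hspa8 against 580.0 to 592 CPM, control mouse 3 held 1221 CPM of Hspb1 against 482 to 562 CPM, and mouse 6 held 148.6 CPM of Hsph1 against 0 to 20.998 CPM.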

How the results depend on the processing

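Counts of called members kept within 1.5 times the reported count in 97.5% of the pairs of result and setting. For all treatment and date results the reported count was 0, and a kept count does not show that each single call stayed. The exceptions to this rule on counts follow. For the date over all wells, DESeq2 called 1 member and the fit without the low-count filter 4. For the treatment in astrocyte-like wells DESeq2 called 1 (Hsph1, log2 6.03), and for the date in oligodendrocyte-like wells the unfiltered fit called 2. For pericyte-like over astrocyte-like wells limma called 5 against 2. Between the oligodendrocyte-like clusters, assignment by title called 0, and leaving out a mouse gave 0 to 1. Assignment by title turned the treatment difference of Hsp90aa1 to 0.32, Hspa8 to 0.18, Hsp90ab1 to 0.15, Cryab to 0.33, Hspa1a to -0.19, Hspb1 to -0.26 and Hsph1 to -0.10, and the date difference of Hspa8 to 0.12, Hsp90aa1 to 0.14, Hsp90ab1 to 0.063, Hspb1 to -0.30, Hsph1 to 0.35, Dnajb1 to 0.25 and Cryab to 0.15. Leaving out a mouse put the date difference of Hspb1 between -0.027 (without control mouse 1) and 0.42, and that of Hspa5 between -0.56 and 0.12 (without mimic mouse 2). The cause of these was not tested. Over all wells, the treatment gave 15 genes by DESeq2 and 84 unfiltered against 0, and the date gave 2.58% of genes by DESeq2 and 430 genes unfiltered against 0, 2 without control mouse 3 and 53 without mimic mouse 4. Within classes, against 0, DESeq2 called for treatment and date 31 and 24 genes (astrocyte-like), 33 and 98 (endothelial-like), 3 and 3 (oligodendrocyte-like) and 14 and 18 (pericyte-like), and the unfiltered fit called 2 and 4, 8 and 17, 18 and 9, and 1 and 4. For class pairs in the order of the report, edgeR called 661, 1477, 1281, 1619, 1151 and 1116 genes, DESeq2 1632, 2390, 2302, 2667, 2246 and 1830, limma 1338, 2343, 2198, 2602, 2008 and 1886, and the unfiltered fit 1497, 2759, 2397, 3029, 2287 and 2092. Between the clusters the counts were 7 by edgeR, 470 by DESeq2, 13 by limma, 11 unfiltered, 3 by title and 4 without control mouse 3 or 5. Control and mimic mice share no mouse number, but well names begin with L7 (mice 1, 2, 5 and 6) or L8 (mice 3, 4, 7 and 8), which the labels do not explain, so that each date and prefix held 1 control and 1 mimic mouse. With these 4 pairs as a block, a fit chosen after seeing the data, 0 members and 0 genes were called by edgeR for the treatment over all wells, with 456 genes at an unadjusted p under 0.05 (Hsph1 0.65, adjusted p = 0.923), and 0 members in each large class. With the prefix as a term, 0 members were called for treatment or date, and the date gave 2 genes. For class pairs without the mouse block, 1, 4, 4, 6, 2 and 5 members were called, the same counts as with it. Thinning wells to 50000 counts lowered the share with Cryab in endothelial-like wells from 12.1% to 0%, so counts near 1 per well are limited by depth.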
